A study of Mus musculus with 6 samples.

Results

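The leukocyte and matrix-binding integrins described here are 10 genes, Itgal, Itgam, Itgax, Itgb2, Itgae, Itgb7, Itga4, Itga5, Itga6 and Itgb1. They were chosen by symbol from a table of 14912 genes, and all 10 were found and passed the filter on low values, a mean of at least 10 normalised reads. The table came from bone marrow cells of wild-type C57BL/6J mice cultured with FLT3 ligand at 50 ng/ml, which was renewed on day 7. Midkine, a secreted protein that binds heparin, was given as the human recombinant form, at 10 ng/ml for the last 2 days of culture, in 3 samples, and the 3 control samples received FLT3 ligand without midkine. The labels call the cells bone marrow derived dendritic cells, under sample titles that all begin with tol_DC. The labels name neither a vehicle nor a sort, and do not say whether replicates came from separate mice or cultures. The p-values here thus rest on a spread that may be only technical.

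Integrins are cell surface receptors made of 1 alpha and 1 beta subunit, and a subunit leaves the cell's secretory pathway only once it has found a partner. On dendritic cells the receptors built on Itgb2 hold the cell to other leukocytes and endothelium and take up complement-coated particles, those built on Itgb7 bind epithelium and gut vessels, and those built on Itgb1 bind fibronectin and laminin in the matrix. Heterodimers of Itgb1 with Itga4 or Itga6 have been described as components of the midkine receptor complex, which gives these genes a place in a study of that growth factor.

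Reads from the 3' ends of transcripts were counted per gene. The libraries held 5685055 to 6453768 reads with midkine and 5089338 to 5532055 in control, and the values below are the authors' normalised read counts, reads divided by a size factor per library. Dendritic cell genes were present in all 6 libraries: Flt3, the gene of the FLT3 ligand receptor, had 572 to 596 normalised reads with midkine and 599 to 669 in control. The antigen presentation gene H2-Aa had 18255 to 19497 with midkine and 15776 to 19077 in control. Neither was called. Of the 6 dendritic cell markers, Itgax among them, 2 were called higher and 1 lower, beside 20.9% and 21.8% of all tested genes. The one called lower was Zbtb46, a transcription factor gene of conventional dendritic cells, at 570.4 ± 6.82 normalised reads with midkine and 792 ± 12.4 in control (limma adjusted p = 3.1e-05). H2-Ab1 was called higher, at 0.27 on the log2 scale (limma adjusted p = 0.00876) but not with scaling to total reads (0.01) or quantile normalization (0.13). Mitochondrial ribosomal RNA took 18.1% to 20.9% of reads with midkine and 9.33% to 9.86% in control. Cell numbers were not measured, so in these bulk samples a change in the number of cells of a type and a change in RNA per cell cannot be told apart.

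Midkine libraries held more reads of 6 integrin genes, Itga5, Itgae, Itgax, Itga6, Itgam and Itgb1, and fewer of Itgal and Itga4. The limma test on log2(value + 1), with Benjamini-Hochberg adjustment over all tested genes, called these 8 of 10 at an adjusted p under 0.05, against 42.7% of the 11844 genes tested. In the separate directions, 6 rose against a background of 20.9% of genes, and 2 fell against 21.8%. A log2 fold change of at least 1.5 in size was called for 3 of the 10 genes, Itga5, Itgal and Itgae, against 3.51% of all tested genes. The 2 remaining genes, Itgb2 and Itgb7, are beta subunits and were not called. The median log2 fold change of the 10 genes was 0.58, against -0.01 over all tested genes. For all 10 genes the 3 midkine values lay on one side of the 3 control values, as they did for 51.3% of tested genes. Together the 10 genes had 9885 to 10134 normalised reads with midkine and 8127 to 8579 in control, ranges that are apart. As a share of all reads, ribosomal RNA included, they had 1582 to 1671 reads of every 1000000 with midkine and 1588 to 1646 in control, ranges that overlap.

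**Figure D1:**
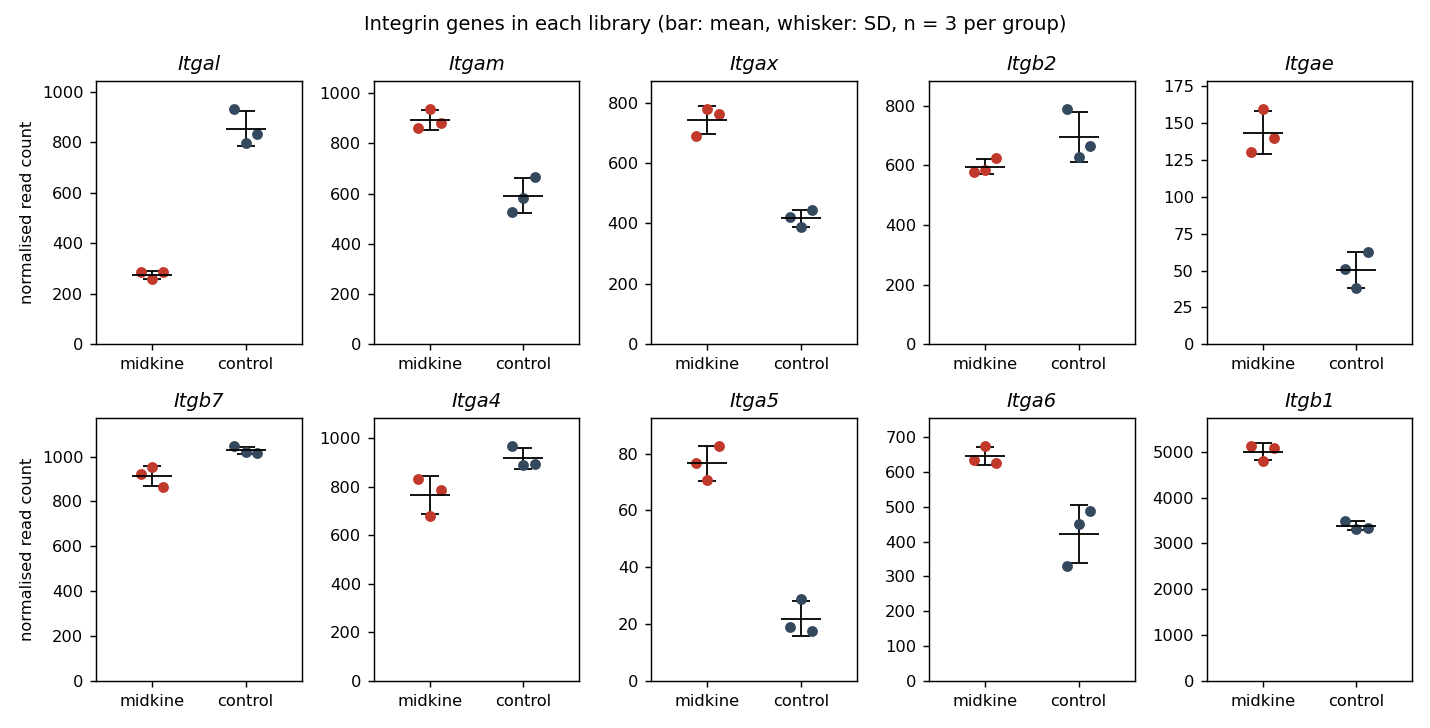
Normalised read counts of the 10 integrin genes (vertical axis, one scale per panel from 0) in the 3 midkine and 3 control libraries; points are libraries, bars the mean and whiskers the SD. Itgal is low in all midkine libraries, at 258 to 285 against 795 to 930.3 in control libraries, while Itgam, Itgax, Itgae, Itga5, Itga6 and Itgb1 are high in them.

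Among the receptors of leukocytes, Itgal moved against its relatives. Itgal encodes CD11a, which joins Itgb2 to form LFA-1, the receptor for intercellular adhesion molecules that holds a dendritic cell and a lymphocyte together. It had 284, 258 and 285 normalised reads with midkine, against 930.3, 795 and 834 in control. The highest midkine value was 35.8% of the lowest control value. The mean fell to 275 ± 15.4 with midkine, against 853 ± 69.8 in control (SD, n = 3 each; 3.09-fold lower, log2 fold change -1.63, SE 0.09, limma adjusted p = 1.9e-13). Itgal lies on chromosome 7 of GRCm38 from 127296260 to 127335138, on the plus strand.

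Itgam encodes CD11b, which with Itgb2 makes the complement receptor Mac-1 and is used as a surface marker of type 2 conventional dendritic cells, monocytes and neutrophils. It had 859.8, 936 and 880 normalised reads with midkine and 528, 580.3 and 665 in control. Every midkine value exceeded the highest control value, and the control libraries were spread more widely. The mean was 892 ± 39.3 with midkine and 591 ± 69.1 in control (1.51-fold higher, log2 fold change 0.60, SE 0.09, limma adjusted p = 5.5e-06). Itgax encodes CD11c, the surface protein by which mouse dendritic cells are most often recognised and the alpha chain of a second complement receptor. It had 691, 778 and 762 normalised reads with midkine, against 420.3, 387 and 443 in control, again with a gap between the groups. The mean was 743 ± 46.4 with midkine and 417 ± 28.0 in control (1.78-fold higher, log2 fold change 0.83, SE 0.09, limma adjusted p = 2.4e-08).

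Itgam and Itgax lie 11056 bases apart on the plus strand of chromosome 7 (Itgam 128062640 to 128118491, Itgax 128129547 to 128150657, GRCm38), and Itgad, a relative with 5 reads in the midkine and 12 in the control libraries, starts 3719 bases beyond Itgax. Itgal is a distant neighbour, with its end 727502 bases before the start of Itgam. The predicted gene Gm49368 shares exons of Itgam on the same strand. It had 21.1 ± 7.08 normalised reads with midkine and 9.79 ± 4.39 in control (log2 fold change 1.08, limma adjusted p = 0.0236). It passed the filter on low values only through the midkine group. Reads in the shared exons could have been given to either gene or dropped, and the counting setting is not given in the sources used here.

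RefSeq promoter sequences (GRCm38.p6, 250 bases before to 50 after the transcript start) were at hand for 6 of the 10 genes: Itgam, Itgax, Itga5, Itgb1, Itga4 and Itgb7. The promoters of the neighbours Itgam and Itgax, whose genes rose together, are shown for comparison with those of Itga5 and Itgb1, the matrix receptor genes that also rose. Capitals mark matches on either strand to GAGGAA, the core of sites bound by the myeloid factor PU.1, or to TGANTCA, the site of AP-1 factors; no match to one overlaps a match to the other.
Itgam, chr7:128062390-128062689, plus strand: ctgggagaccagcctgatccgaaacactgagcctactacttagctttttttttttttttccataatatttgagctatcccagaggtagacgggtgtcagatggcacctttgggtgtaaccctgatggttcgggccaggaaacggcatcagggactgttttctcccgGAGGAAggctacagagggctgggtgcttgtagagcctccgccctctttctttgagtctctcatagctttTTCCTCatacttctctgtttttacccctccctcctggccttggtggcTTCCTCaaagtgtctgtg
Itgax, chr7:128129300-128129599, plus strand: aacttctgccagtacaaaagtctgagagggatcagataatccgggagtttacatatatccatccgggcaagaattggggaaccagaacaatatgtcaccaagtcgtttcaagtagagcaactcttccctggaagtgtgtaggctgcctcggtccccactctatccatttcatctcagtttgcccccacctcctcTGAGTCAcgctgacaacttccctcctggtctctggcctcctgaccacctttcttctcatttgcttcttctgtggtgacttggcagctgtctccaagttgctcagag
Itga5, chr15:103366742-103367041, minus strand: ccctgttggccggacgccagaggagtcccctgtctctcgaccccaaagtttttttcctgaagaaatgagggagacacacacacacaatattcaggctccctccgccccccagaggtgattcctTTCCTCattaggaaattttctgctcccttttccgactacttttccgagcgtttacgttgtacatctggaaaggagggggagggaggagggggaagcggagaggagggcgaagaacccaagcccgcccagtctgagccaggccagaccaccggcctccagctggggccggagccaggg
Itgb1, chr8:128685404-128685703, plus strand: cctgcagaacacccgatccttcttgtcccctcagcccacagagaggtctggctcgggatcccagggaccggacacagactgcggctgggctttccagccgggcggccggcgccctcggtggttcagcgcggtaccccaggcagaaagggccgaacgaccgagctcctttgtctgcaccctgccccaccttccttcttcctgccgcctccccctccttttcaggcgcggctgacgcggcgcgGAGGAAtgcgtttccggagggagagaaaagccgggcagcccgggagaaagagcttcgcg
GAGGAA occurred 3 times in the Itgam window, at -84 to -79, -15 to -10 and 33 to 38 relative to the start. It occurred once each in those of Itga5, Itgb1 and Itgb7, and 28.3% of 32851 promoters of this length hold at least 1 match. TGANTCA occurred once in the Itgax window, at -56 to -50, and in no other of the 6, while 7.81% of promoters hold it. GC content was 50.3% for Itgam and 50.0% for Itgax, against 58.7% for Itga5, 67.3% for Itgb1 and a median of 52.7% over all promoters.

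Itgb2 encodes CD18, the beta subunit that Itgal, Itgam and Itgax all need to reach the surface, and its loss in people causes leukocyte adhesion deficiency. It had 576, 585 and 624 normalised reads with midkine and 788, 629 and 664 in control. The midkine values lay below the control values by a narrow margin, and 1 control library stood above the others. The mean was 595 ± 25.9 with midkine and 693 ± 83.5 in control, a difference that was not called (log2 fold change -0.21, 95% confidence interval -0.40 to -0.03 before adjustment, limma adjusted p = 0.0584). Without control replicate 2 it was called, at -0.28 (limma adjusted p = 0.0325), and without control replicate 1 it was at -0.12 (limma adjusted p = 0.293). With libraries scaled to total reads without ribosomal RNA it was called, at -0.29 (limma adjusted p = 0.0105).

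The summed reads of the alpha subunit genes that pair with Itgb2 overlapped between the groups, while the shares of Itgal, Itgam and Itgax did not. The sum over Itgal, Itgam, Itgax and Itgad was 1836 to 1973 normalised reads with midkine and 1765 to 1949 in control. Itgal made up 15.5%, 13.1% and 14.8% of it with midkine, against 49.5%, 45.0% and 42.8% in control. Itgam made up 46.6% ± 0.91 with midkine and 31.7% ± 3.19 in control, and Itgax 38.9% ± 1.06 with midkine and 22.3% ± 0.40 in control (SD, n = 3 each). The shares of Itgad, with few reads, did overlap. Reads are counted at transcript ends and not along the gene, but capture can differ between genes, so the shares are read here only between groups.

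**Figure D2:**
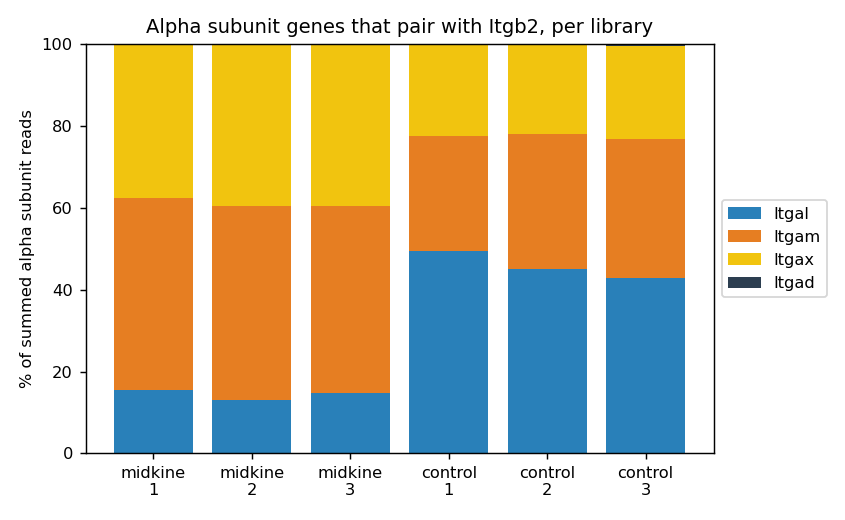
Share of the summed normalised reads of Itgal, Itgam, Itgax and Itgad taken by each gene (vertical axis, percent) in each library, midkine to the left and control to the right. The Itgal share is 13.1% to 15.5% in midkine libraries and 42.8% to 49.5% in control libraries, and Itgad is barely visible in any.

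Markers of several cell types moved beside these genes. The counts below stand beside 20.9% of all tested genes called higher and 21.8% called lower. Of 9 tested plasmacytoid dendritic cell markers 8 fell and 0 rose by limma, by edgeR, by DESeq2 and at an unadjusted limma p under 0.05, with summed levels of 1775 to 1861 normalised reads with midkine and 6037 to 6262 in control. All 8 type 1 conventional dendritic cell markers fell by limma and edgeR, and 7 of them by DESeq2. Their summed levels were 12998 to 14825 with midkine and 24451 to 28770 in control. Batf3 had the weakest of these calls, with groups that overlapped (limma adjusted p = 0.0372). Among 7 type 2 markers, Itgam included, 4 rose and 1 fell (4009 to 4586 with midkine, 3276 to 3541 in control). Macrophage markers went both ways, with 2 of 9 higher and 3 lower (3023 to 3209 with midkine, 3511 to 4916 in control), and of 4 tested neutrophil markers 3 fell. The summed neutrophil level was 38.5 to 69.9 normalised reads with midkine and 529 to 657 in control, and Ly6g and Elane, too low to be tested, had 0 reads with midkine and 1 and 5 in control. Of the genes that fell, neutrophil Ngp and plasmacytoid Pacsin1 and Upb1 passed the filter only through the control group. Their midkine means were 5.52, 6.04 and 8.92 normalised reads, under the filter's mean of 10. The part of these cell types in the changes of Itgal, Itgam and Itgax was not tested.

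Itgae had the largest rise among the genes of the leukocyte integrins, Itgal, Itgam, Itgax, Itgb2, Itgae and Itgb7. It encodes CD103, which pairs with Itgb7 to bind E-cadherin on epithelium and marks type 1 conventional dendritic cells in many tissues. It had 131, 159 and 140.2 normalised reads with midkine, against 51.0, 38.3 and 62.5 in control. The lowest midkine value was 209% of the highest control value. The mean was 143 ± 14.6 with midkine and 50.6 ± 12.1 in control (2.84-fold higher, log2 fold change 1.51, SE 0.17, limma adjusted p = 6.1e-08). Of the tested genes, 97.8% had a lower log2 fold change. Itgae lies on chromosome 11 from 73090583 to 73147446 and shares no exonic sequence with another annotated gene. The 8 type 1 markers counted above, which do not include Itgae, all fell by limma in the same libraries, and 7 of them by DESeq2.

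Its partner Itgb7 did not follow. Itgb7 encodes the beta subunit of the receptor for E-cadherin and, with Itga4, of the gut-homing receptor for the addressin MAdCAM. It had 921, 955 and 865 normalised reads with midkine and 1047, 1019 and 1017 in control. The groups were apart by about their own spread, and the difference was not called (log2 fold change -0.17, 95% confidence interval -0.33 to -0.01 before adjustment, limma adjusted p = 0.0789). Within each library, the log2 ratio of Itgae to Itgb7 reads was -2.67 ± 0.12 with midkine and -4.35 ± 0.35 in control, a difference of 1.68, or 3.20-fold. Cdh1, the gene of the ligand E-cadherin, went the other way. It had 48.7 ± 12.04 normalised reads with midkine and 265 ± 41.4 in control (log2 fold change -2.44, limma adjusted p = 3.6e-12).

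Transforming growth factor beta is known to induce CD103, with Runx3 among the factors that act on the gene in T cells. Of 13 tested genes of this axis and of the Runx family 7 rose and 2 fell, beside 20.9% and 21.8% of all tested genes. Their median log2 fold change was 0.24. Tgfb3 had 273 ± 11.8 normalised reads with midkine and 61.7 ± 5.61 in control (log2 fold change 2.13), and Tgfb2 and Runx3 rose by 1.40 and 1.14 on the log2 scale. Tgfb1 did not rise, at 169 ± 21.3 normalised reads with midkine and 201 ± 34.8 in control (log2 fold change -0.23, limma adjusted p = 0.157). The receptor gene Tgfbr1 fell by 0.83 on the log2 scale, and Cbfb, the gene of the subunit that Runx proteins bind DNA with, fell by 0.75. Tgfbr2, another receptor gene, was at -0.32 and was not called in the main analysis (limma adjusted p = 0.076). Whether these genes and Itgae changed in the same cells was not measured.

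Of the matrix receptor genes, Itgb1, Itga5 and Itga6 rose. Itgb1 encodes CD29, the beta subunit shared by receptors for fibronectin, laminin and collagen. It had 5128, 4791 and 5087 normalised reads with midkine, against 3498, 3310.1 and 3342 in control. The groups were well apart, with little spread within either. The mean was 5002 ± 184 with midkine and 3384 ± 101 in control (1.48-fold higher, log2 fold change 0.56, SE 0.07, limma adjusted p = 6.2e-07). Itgb1 lies on chromosome 8 from 128685654 to 128733200.

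Itga5, the alpha subunit of the main fibronectin receptor, had the largest rise of the 10 genes. Its counts were low, with 68, 77 and 82 reads in the midkine libraries and 20, 31 and 17 in the control libraries, or 76.6, 70.6 and 82.7 normalised reads with midkine against 18.9, 28.9 and 17.7 in control. The lowest midkine value was 244% of the highest control value. The mean was 76.6 ± 6.08 with midkine and 21.8 ± 6.16 in control (3.47-fold higher, log2 fold change 1.79, SE 0.21, limma adjusted p = 2.0e-07). Of the tested genes, 98.7% had a lower log2 fold change. Itga5 and Itgb7 lie on the minus strand of chromosome 15, Itga5 from 103344286 to 103366763 and Itgb7 from 102215995 to 102231944.

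Itga6 encodes a laminin receptor subunit that pairs with Itgb1 on leukocytes. It had 634, 674 and 626 normalised reads with midkine, against 329.6, 449.7 and 488 in control. The lowest control library was well under the others, and all midkine libraries were above every control library. The mean was 645 ± 26.1 with midkine and 422 ± 82.5 in control (1.55-fold higher, log2 fold change 0.63, SE 0.11, limma adjusted p = 4.3e-05).

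Itga4 was the matrix receptor gene that fell. It encodes CD49d, which with Itgb1 binds VCAM and fibronectin and with Itgb7 binds MAdCAM. It had 832, 679 and 784 normalised reads with midkine and 967, 890.0 and 891 in control. The change was small next to the others, 1.20-fold lower at a mean of 765 ± 78.0 with midkine and 916 ± 44.2 in control (log2 fold change -0.26, SE 0.09, limma adjusted p = 0.0156). The call was lost without midkine replicate 2 (log2 fold change -0.18, limma adjusted p = 0.0977) and without control replicate 1 (-0.22, limma adjusted p = 0.0513). Exons of Itga4 overlap those of Cerkl on the other strand, whose 22 reads with midkine and 23 in control are few beside those of Itga4.

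Stromal markers moved beside the matrix receptor genes: of 7 tested 6 rose and 1, Cxcl12, fell (log2 fold change -0.68), with summed levels of 24292 to 28636 normalised reads with midkine and 9352 to 11195 in control. Their part in the changes of Itgb1, Itga5 and Itga6 was not tested. Over all tested genes 20.9% rose and 21.8% fell. Endothelial markers went both ways, with 1 of 3 higher and 2 lower (444 to 461 with midkine, 314 to 382 in control). The marker called higher was Pecam1, at 430 ± 10.1 normalised reads with midkine and 275 ± 23.1 in control. Cdh5 was lower, at 3.02 ± 0.88 with midkine and 24.8 ± 2.77 in control, and so was Kdr, at 21.7 ± 3.64 and 43.7 ± 16.3. Cdh5 passed the filter on low values only through the control group.

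Ratios within a library do not depend on how libraries are scaled to each other. Of 8 pairs of an alpha with a beta subunit gene, 6 had groups that did not overlap, each with an exact two-sided permutation p of 0.1, the smallest that 3 against 3 libraries allow, and an adjusted p of 0.133 over the 8 pairs. Pairs share genes and are not separate results, and groups were apart for 51.3% of single tested genes. Relative to Itgb2, Itgal was at a log2 ratio of -1.11 ± 0.08 with midkine and 0.30 ± 0.05 in control, a difference of -1.41. Relative to Itgb2, Itgam was higher by 0.81 and Itgax by 1.05. Relative to Itgb1, Itga5 was higher by 1.23 and Itga4 lower, at -2.71 ± 0.10 with midkine and -1.88 ± 0.03 in control. Itga6 showed no separation of the groups relative to Itgb1, at -2.95 ± 0.11 with midkine and -3.02 ± 0.34 in control (exact permutation p = 0.9). Neither did Itga4 relative to Itgb7, at -0.26 ± 0.20 with midkine and -0.17 ± 0.05 in control (exact permutation p = 0.8).

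**Figure D3:**
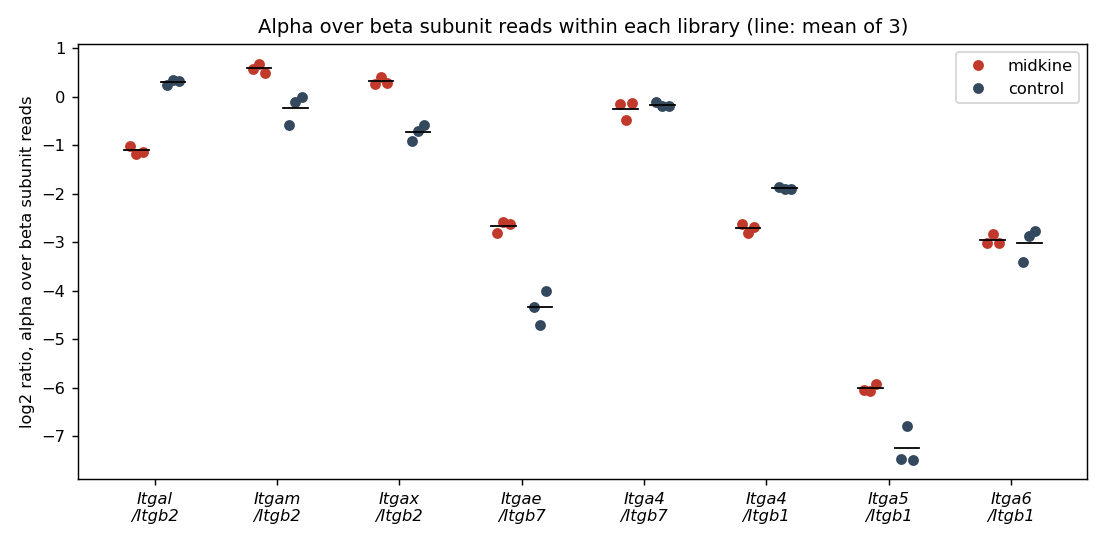
Log2 ratio of alpha to beta subunit reads (vertical axis, log2 of normalised reads plus 1) within each library for 8 pairs, midkine to the left of control; points are libraries and lines the means of 3. The groups overlap for Itga4 over Itgb7 and for Itga6 over Itgb1, and are apart for the other 6 pairs.

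Other integrin subunits were tested for 9 genes, and 5 rose and 1 fell, at a median log2 fold change of 0.73. Over all tested genes 20.9% rose and 21.8% fell. Itga11, a collagen receptor subunit of fibroblasts, had 376 ± 26.5 normalised reads with midkine and 57.7 ± 3.44 in control (log2 fold change 2.68, limma adjusted p = 2.5e-15), a larger change than that of any of the 10 genes. Itga3 (1.61), Itga2b (1.53), Itgb5 (0.86) and Itgb3 (0.73) also had positive log2 fold changes and were called. Counts were low for Itga3, with 73 reads over the midkine and 24 over the control libraries, and for Itga2b, with 89 and 30. Itga2b and Itgb3 form the platelet fibrinogen receptor. Of 5 tested megakaryocyte and platelet markers, these 2 genes among them, 4 rose and 1 fell. Gp1bb was 3.03-fold higher and Ppbp 1.93-fold higher, Pf4 was 2.39-fold lower, and summed levels were 449.6 to 519 normalised reads with midkine and 439 to 599 in control. Their part in the changes of Itga2b and Itgb3 was not tested. Itga8 fell to 5.45 ± 1.71 normalised reads with midkine, against 22.4 ± 1.38 in control. Itga3, Itga2b and Itga8 each passed the filter, a mean of at least 10, only through the group where they were higher. At a minimum mean of 50, 5 of the other subunits were tested, and 3 rose and 0 fell by limma. Itga1, another collagen receptor subunit, had 1291 ± 64.6 normalised reads with midkine and 1308 ± 63.3 in control, and was not called (log2 fold change -0.02, 95% confidence interval -0.18 to 0.14). Itgav (0.22, limma adjusted p = 0.0601) and Itga9 (-0.30, limma adjusted p = 0.238) were not called either in the main analysis. Quantile normalization called 6 of the other subunits higher, and scaling to total reads called 3 lower.

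**Figure D4:**
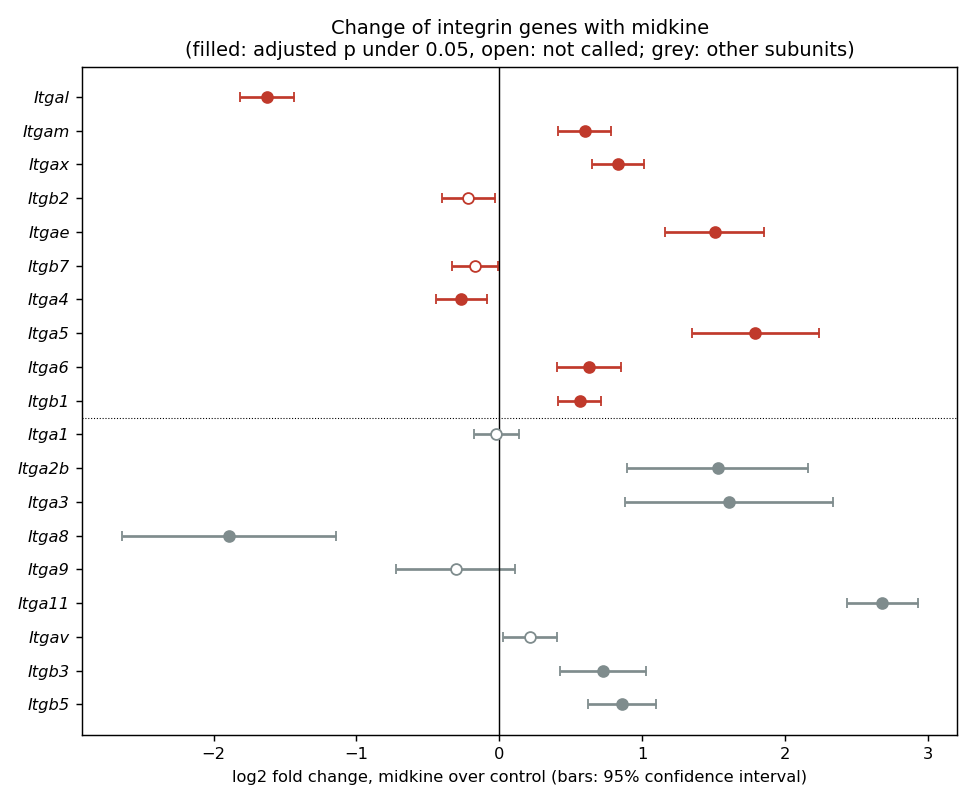
Log2 fold changes of the 10 integrin genes (red) and of 9 other integrin subunit genes (grey), midkine over control; bars are 95% confidence intervals before adjustment, filled points are called and open points are not. The beta subunits Itgb2 and Itgb7 sit close to 0 while Itgal and Itga5 lie farthest from it among the 10 genes, at -1.63 and 1.79.

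Ligand genes were counted in 2 lists, those of leukocyte integrins and those of the matrix. Of 8 tested ligands of leukocyte integrins 2 rose and 3 fell (median log2 fold change -0.01), beside 20.9% and 21.8% of all tested genes. C3, whose fragment is bound by Itgam and Itgax receptors, rose by 1.61 on the log2 scale, and Icam1 and Icam2, ligands of Itgal receptors, had log2 fold changes of -0.96 and -1.22. F11r, another ligand gene of Itgal receptors, was called higher at 0.48 (limma adjusted p = 0.0057), but not with scaling to total reads (0.22, limma adjusted p = 0.193). Of 13 tested matrix ligands of Itgb1 receptors 11 rose and 0 fell by limma (median 0.93). Of these 13, 0 were lower at an unadjusted p under 0.05, and edgeR and DESeq2 each called 0 lower. Lama5, among those that rose, passed the filter only through the midkine group, at 23.0 ± 3.06 normalised reads against 7.80 ± 3.83 in control. At a minimum mean of 50, 12 of the matrix ligands were tested, and 10 rose and 0 fell by limma. Fn1, the fibronectin gene and ligand gene of Itga5 and Itga4 receptors, had 6147 ± 267 normalised reads with midkine and 2879 ± 290.0 in control (log2 fold change 1.10). Thbs1 rose by 1.96 and Lamb1, a laminin chain gene, by 1.13. Vcam1, the cell surface ligand of Itga4 receptors, was not called (-0.11, limma adjusted p = 0.467).

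Genes that regulate integrins or link them to the cell interior went both ways. Of 28 tested activators, adaptors and other regulators 10 rose and 11 fell (median log2 fold change -0.06). Over all tested genes 20.9% rose and 21.8% fell, the shares to set beside each list count here. Rasgrp2, which turns on the small GTPase Rap upstream of integrins in blood cells, fell to 37.8 ± 7.41 normalised reads with midkine, against 134 ± 31.3 in control (log2 fold change -1.79), and Rassf5, the Rap effector that acts on Itgal, had a log2 fold change of -0.61. Fermt2, the kindlin of adherent cells, rose by 1.26, whereas Fermt3, the kindlin of blood cells, fell by 0.29. Tln1, the talin that binds beta subunit tails, was at 3363 ± 179 with midkine and 3255 ± 152 in control and was not called (0.05, limma adjusted p = 0.648). Of 14 signalling genes behind integrins 6 rose and 2 fell (median 0.17), with Lyn at -0.53, Lcp2 at 0.74 and Src at 1.31. Of 12 tetraspanins and other lateral partners 7 rose and 2 fell (median 0.52). Plaur, the urokinase receptor that binds Itgam and Itgb1 receptors sideways, was at 75.3 ± 3.59 normalised reads with midkine and 13.9 ± 0.32 in control (log2 fold change 2.36), and Cd47 fell by 0.55. Fermt3, Tgfb1, Tgfbr1, Tgfbr2, Batf3, Zbtb46, H2-Ab1, Cxcl12, Gp1bb, Ppbp and Pf4 were named after their values were seen. The same holds for Lama5, Ngp, Pacsin1, Upb1, Pecam1, Cdh5 and Kdr.

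By likeness over the 6 libraries, the genes closest to Itga5 were Dact3, Unc5b and Tmem47, with Pearson correlations of log2 values of 0.9997, 0.9996 and 0.9989. These describe 6 libraries that fall into 2 groups and share their depth and scaling, and 31 tested genes had a correlation over 0.99 with Itga5.

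The direction of each of the 10 genes was the same in all processing alternatives run, including those that scale the libraries differently. Scaling to total reads put the median of all genes at -0.26 on the log2 scale; relative to that shift, which by construction gives nearly the values of the authors' scaling back, Itgal was at -1.62 and Itgam at 0.60. As obtained, Itgam was at 0.34, Itga6 at 0.37 and Itgb1 at 0.31, all still called, and quantile normalization put Itgb1 at 0.35. With total reads Itgb2 (-0.47, limma adjusted p = 0.000198) and Itgb7 (-0.43, limma adjusted p = 0.000198) were then called, so 4 of the 10 genes were lower, and of all genes 1283 were higher and 4817 lower, against 2481 and 2578. The 6 genes that rose and Itgal were called in every alternative in which they were tested.

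**Figure D5:**
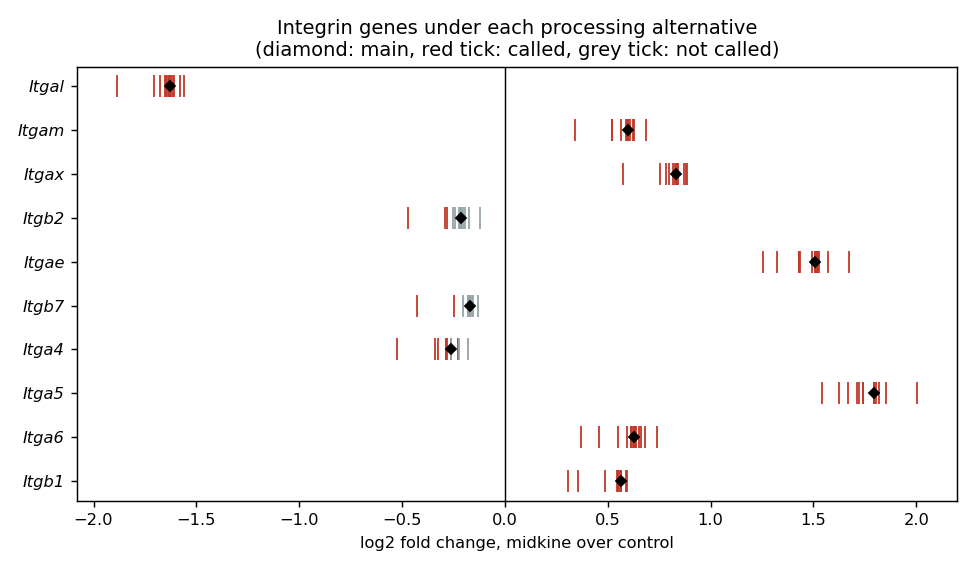
Log2 fold change, midkine over control, of each integrin gene under each processing alternative (ticks, red where called and grey where not) and in the main analysis (diamonds). All ticks of a gene lie on one side of 0, from 0.31 to 0.59 for Itgb1 and from -0.52 to -0.18 for Itga4.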

How the data were processed

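Libraries were made from 500 ng of total RNA with a 3' end kit for forward reads, per the labels. The alignment tools in the submitters' processing notes are TopHat2 2.0.10 and Bowtie 1.0.0. HTSeq, which counts reads per gene, and DESeq2 are named there as well, beside SAMtools 0.1.19 and FastQC 0.11.0, with GRCm38 and mm10 as builds. Neither an annotation nor a strand setting is given in the sources used here. The values the authors deposited are a signal, gene reads divided by a size factor per library, and 100% of them were whole multiples of 1 read within 1e-06. Between replicates of a group, chi-square was 2.31 to 10.6 per degree of freedom, above counting noise.

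Genes with a mean of at least 10 were tested with limma 3.58.1 (R 4.3.3, variance trend) on log2(value + 1), which understates changes of low genes, with a Benjamini-Hochberg threshold of 0.05; the test was checked on simulated data. Alternatives used edgeR 4.0.16 and DESeq2 1.42.0 on recovered reads, and other pseudocounts, filters, scalings, a replicate block and left-out libraries. Ratios used exact permutation tests (SciPy 1.17.1). Members and lists were chosen with earlier results of these data known. Named were all members, tested other subunits, and from each list up to 5 called genes of smallest p and up to 2 abundant genes not called. Positions are from GENCODE vM21.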

Additional observations from a re-analysis of the deposited data

How the results depend on the processing

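Scaling to total reads gave 1283 higher and 4817 lower genes, against 2481 and 2578 (21.0% of calls higher, against 49.0%), and totals without ribosomal RNA gave 2023 and 3178 (38.9% higher). Scaling to total reads gave 4 integrin genes lower, with Itgb2 at -0.47 and Itgb7 at -0.43, and totals without ribosomal RNA gave 4 as well (Itgb2 -0.29, Itgb7 -0.25). Scaling to total reads also gave 3 other subunits, 4 lateral partners and 5 genes of the transforming growth factor list lower, 1 leukocyte ligand and 2 signalling genes higher, and turned Tln1 to -0.21. Without a variance trend 1 integrin gene (Itga4 at -0.26 was lost), 7 genes of the activator and adaptor list and 1 signalling gene were lower. DESeq2 also left 1 signalling gene lower. Quantile normalization gave 6 other subunits higher, against 5 in the main analysis. A minimum mean of 50 left 3 other subunits higher and 0 lower by limma (0 also at an unadjusted p under 0.05), since low genes were not tested, and 1 leukocyte ligand higher; Itga5 was then not tested.

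Leaving out 1 library at a time gave 1 to 3 integrin genes and 1 to 2 signalling genes lower, Itgb2 from -0.28 to -0.12 and Itga4 from -0.33 to -0.18. The difference of Itga4 over Itgb7 lay between -0.15 and 0.023, turning without midkine replicate 2, and that of Itga6 over Itgb1 between -0.13 and 0.19, turning without control replicate 1. Of 51 other genes that the naming rule selects 9 gained and 3 lost a call in at least 1 alternative.

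Same-numbered libraries did not deviate together (correlations -0.01, 0.03 and -0.06), so the numbers were not taken to pair the samples. With the replicate block, Itgb2 at -0.21 was called (limma adjusted p = 0.0460), giving 3 integrin genes lower, and 2519 genes were higher and 2641 lower. Apart from these changes and the gained and lost calls counted above, calls and counts held in the alternatives run, within 1.5 times for counts. Fermt3, Tgfb1, Tgfbr1, Tgfbr2, Batf3, Lama5, Gm49368, Ngp, Pacsin1, Upb1, Pecam1, Cdh5 and Kdr were not followed singly in the alternatives. Zbtb46, H2-Ab1, Cxcl12, Gp1bb, Ppbp and Pf4 were followed singly only under the other scalings. Where not stated, the cause of a change was not tested. On recovered reads edgeR called 2540 genes higher and 2600 lower, and DESeq2 2021 and 2066. Depth limits Itga5 and Itgae most, with 17 and 41 reads in their lowest libraries.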
